A study of Rattus norvegicus with 9 samples.

Results

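Described here are 10 genes of heart muscle across the lung libraries of a rat ischemia-reperfusion study: Myh6, Myl7, Myl4, Mybpc3, Actc1, Tnnt2, Tnni3, Ryr2, Sln and Nppa. They were chosen by name to look for the cardiac muscle that surrounds the pulmonary veins of rodents, and all 10 have a single row among the 22833 genes of the deposited table. The label was not borne out by the data. Myl7 and Nppa, which define atrial muscle, stayed below 0.2 FPKM in all 9 libraries, and Myh6 and Sln stayed below 1 in 8 of them, so the genes are called cardiac muscle genes below and not a measure of pulmonary vein cardiomyocytes.

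RNA of rat lungs was sequenced from paired ends in 9 libraries, of which the I-post C, IR and Sham groups hold 3 each. The rats were male Sprague-Dawley animals of 8 weeks, and all groups, Sham included, were given urethane and heparin, ventilated and opened at the left chest. In the I-post C group (ischemic post-conditioning) a clamp closed the left pulmonary hilum for 30 min, 3 short cycles of clamping and release followed (30 s for each step), and the lung was then reperfused for 2 h. In the IR group the hilum was clamped for 30 min and reperfused for 2 h, and in the Sham group it was freed but not clamped. Which of the 6 rats per group gave RNA, and how far the sampled tissue reached toward the hilum, the sources used here do not say. The p-values below set differences between groups against the spread between these libraries, which the sources do not say are separate rats.

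In rodents, muscle of the left atrium continues as a sleeve along the pulmonary veins into the lung. Its cells contract through sarcomeres, in which myosin thick filaments pull on actin thin filaments when calcium released through the ryanodine receptor binds the troponin complex. Atrial muscle differs from ventricular muscle in its myosin light chains (MYL7 and MYL4 in place of MYL2 and MYL3), in sarcolipin and in the secretion of atrial natriuretic peptide, which NPPA encodes. Several relatives of these proteins belong to skeletal muscle, so that their transcripts can come from either tissue.

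Total deposited counts ranged from 45110590 to 51214941 per library, and 18446 to 19602 genes had a count. In every library the total exceeds the mapped reads that the study gives, so it is not a measure of sequencing depth. FPKM is a count of fragments scaled by transcript length and sequencing depth. One library, IR 3, stood apart in its muscle transcripts. The 22 skeletal muscle genes found in the table summed to an FPKM of 4707 in IR 3 and to 35.7 to 100.03 in the other 8 libraries. Many fold changes, counts and medians that involve IR 3, though not all, are therefore also given without it. Sham 3 was the highest library for lung cell genes, whose 6 measured members summed to 58859 there and to 26989 to 44640 elsewhere. Groups were compared on the deposited counts of all 9 libraries by the quasi-likelihood test of edgeR, for the 15402 genes whose mean FPKM reached 0.5. Calling a gene took a Benjamini-Hochberg adjusted p under 0.05 together with a log2 fold change (log2FC) no smaller than 1 in size. Of the 10 cardiac muscle genes, 6 reached that level (Actc1, Tnni3, Tnnt2, Myl4, Sln and Myh6) and 4 did not (Nppa, Mybpc3, Ryr2 and Myl7). Sln and Myh6 reached it only through IR 3, and over the 8 other libraries 4 genes would have done so.

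**Figure D1:**
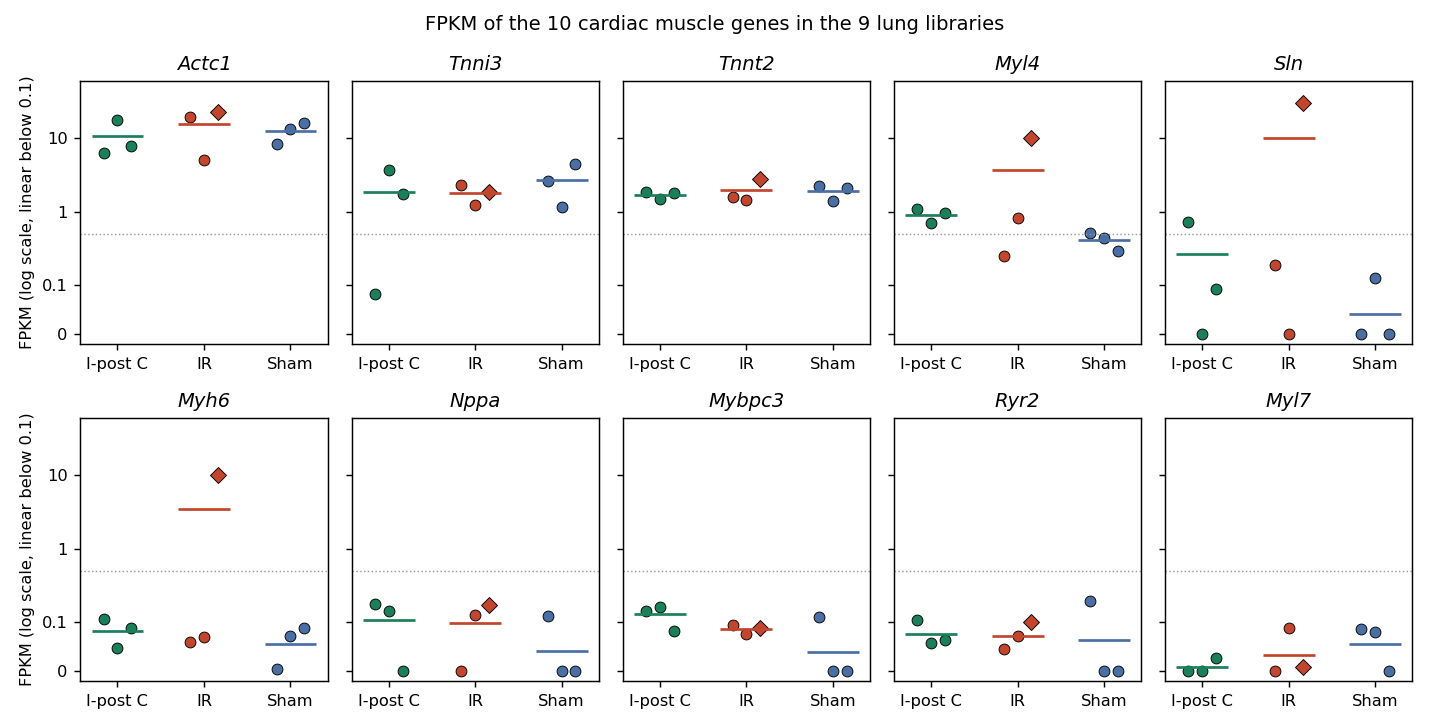
FPKM of the 10 cardiac muscle genes in each library (points) and the mean of each group (line), on a log axis that is linear below 0.1; the dotted line is the filter at 0.5, and the diamond is IR 3. Actc1 and Tnnt2 lay above the filter in every library, and Tnni3 in all but I-post C 1. Myl4, Sln and Myh6 were high in IR 3, and Nppa, Mybpc3, Ryr2 and Myl7 stayed below 0.2 in every library.

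The summed FPKM of the 10 genes was 10.6, 23.97 and 12.6 in I-post C, 23.96, 9.02 and 77.6 in IR, and 14.2, 16.8 and 23.2 in Sham lungs. The groups overlapped, and IR 3 alone lay above all others. Actc1 supplied 56.3% to 81.1% of the sum in the 8 other libraries and 29.1% in IR 3. In each of those 8 libraries 3 of the 10 genes reached an FPKM of 1, and in IR 3 this number was 6. In bulk tissue, fewer cells of a type and less RNA per cell cannot be told apart.

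The 4 lowest, among them defining genes of atrial muscle, were near 0 in all groups. Myl7, the atrial regulatory myosin light chain, lies on chromosome 14 (86143862 to 86147553 in rn6, the build of all gene positions here). Its FPKM was 0, 0 and 0.0271 in I-post C, 0, 0.0878 and 0.00841 in IR, and 0.0865, 0.0793 and 0 in Sham lungs. It was at 0 in 4 of the 9 libraries, and 11.9% of all genes had a lower mean. Nppa, which encodes the atrial natriuretic peptide hormone, lies on chromosome 5 from 164808323 to 164809705. Its FPKM was 0.177, 0.143 and 0 in I-post C, 0, 0.124 and 0.171 in IR, and 0.121, 0 and 0 in Sham lungs. No group was without a library at 0, and the groups overlapped.

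Mybpc3 and Ryr2 were as low. Mybpc3, the cardiac myosin-binding protein C of the thick filament, lies on chromosome 3 from 79940561 to 79958730. Its FPKM was 0.142, 0.158 and 0.0819 in I-post C, 0.0948, 0.0762 and 0.0869 in IR, and 0.116, 0 and 0 in Sham lungs. Ryr2, the calcium release channel of heart muscle, lies on chromosome 17 from 65535403 to 65955606. Its FPKM was 0.106, 0.0571 and 0.0631 in I-post C, 0.0458, 0.0713 and 0.1001 in IR, and 0.191, 0 and 0 in Sham lungs. Sham 2 and Sham 3 were thus the libraries at 0 for both genes, whereas Sham 1 was the highest of all 9 libraries for Ryr2 and lay among the I-post C and IR libraries for Mybpc3. Sham 2 and Sham 3 also had the fewest genes with a count of all libraries (18856 and 18446). The 7 libraries above 0 had deposited counts of 19 to 35 for Mybpc3 and 35 to 158 for Ryr2. The 4 genes were not tested, and none was raised in IR 3 (0.171 for Nppa, 0.0869 for Mybpc3, 0.1001 for Ryr2 and 0.00841 for Myl7).

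The upstream sequences of the genes are shown for a near-absent and a detected pair. RefSeq windows of the GRCr8 rat genome were found for 9 of the 10 genes (for Tnnt2 the more upstream of its windows was taken), and the 250 bases before each annotated start were searched on both strands for 4 motifs of muscle genes. These were the GATA motif (AGATAA or TGATAA, in reverse TTATCT or TTATCA), the MCAT motif (CATTCC, in reverse GGAATG), the CArG box and the MEF2 box. The GATA motif was found in 4 of the 9 windows (Tnni3, Tnnt2, Nppa and Mybpc3), against 16.9% of all 33469 windows. The 4 are printed 5′ to 3′ with every motif match in capitals, because they stand before both genes measured in every library and genes close to 0. All are on the plus strand, at chr1:78342321-78342570 for Tnni3, chr13:49818873-49819122 for Tnnt2, chr5:163711934-163712183 for Nppa and chr3:97550811-97551060 for Mybpc3.
Tnni3: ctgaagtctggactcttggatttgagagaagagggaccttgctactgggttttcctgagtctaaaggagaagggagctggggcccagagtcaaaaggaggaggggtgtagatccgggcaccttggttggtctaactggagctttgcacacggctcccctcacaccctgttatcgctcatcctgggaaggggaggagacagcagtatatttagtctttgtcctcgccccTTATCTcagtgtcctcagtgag
Tnnt2: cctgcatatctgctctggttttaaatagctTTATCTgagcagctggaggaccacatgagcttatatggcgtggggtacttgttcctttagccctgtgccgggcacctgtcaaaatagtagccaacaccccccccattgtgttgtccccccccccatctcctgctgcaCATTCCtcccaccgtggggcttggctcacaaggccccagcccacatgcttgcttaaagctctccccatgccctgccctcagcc
Nppa: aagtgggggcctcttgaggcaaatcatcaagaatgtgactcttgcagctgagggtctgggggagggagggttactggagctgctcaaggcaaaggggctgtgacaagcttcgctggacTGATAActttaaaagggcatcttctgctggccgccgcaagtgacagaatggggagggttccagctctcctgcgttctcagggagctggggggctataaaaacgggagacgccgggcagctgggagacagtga
Mybpc3: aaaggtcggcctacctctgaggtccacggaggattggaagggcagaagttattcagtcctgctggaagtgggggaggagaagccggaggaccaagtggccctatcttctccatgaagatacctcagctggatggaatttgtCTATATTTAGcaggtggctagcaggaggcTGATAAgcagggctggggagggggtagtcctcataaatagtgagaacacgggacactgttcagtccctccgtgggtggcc
Counted back from the start, the first base of the GATA match was at -22 in Tnni3, -220 in Tnnt2, -132 in Nppa and -80 in Mybpc3. Tnnt2 also held an MCAT match at -83, as did Myh6 at -23, and 12.1% of all windows held one. Mybpc3 also held the only MEF2 box, at -109, a motif in 0.523% of all windows, and the CArG box was in none of the 9 windows and in 1.497% of all. No matches of different motifs overlapped. A match is a description of letters, and the same motif stood before genes of higher (Tnni3 and Tnnt2) and of lower level (Nppa and Mybpc3).

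Tnnt2 and Tnni3, which encode the cardiac forms of troponin T and troponin I on the thin filament, had reads in all 9 libraries and were not called in any comparison. Tnnt2 lies on chromosome 13 from 52662996 to 52680990. Its FPKM was 1.87, 1.505 and 1.78 in I-post C, 1.61, 1.44 and 2.81 in IR, and 2.21, 1.41 and 2.14 in Sham lungs. The group means were 1.72 ± 0.191, 1.95 ± 0.747 and 1.92 ± 0.444 (SD, n = 3 each, in the same order). Of the 6 tested genes it spread least, with a highest library 2.00 times the lowest. Its log2FC was 0.14 (standard error 0.42, adjusted p = 0.923 from edgeR) in IR against Sham, -0.35 (0.42, adjusted p = 1 from edgeR) in I-post C against IR and -0.22 (0.42, adjusted p = 0.925 from edgeR) in I-post C against Sham. Without IR 3, the log2FC was -0.35 in IR against Sham and 0.12 in I-post C against IR, so that both directions turned. The first also turned without Sham 2, to -0.04.

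Tnni3 varied far more, and its groups overlapped. Its FPKM was 0.0816, 3.69 and 1.73 in I-post C, 2.28, 1.24 and 1.86 in IR, and 2.62, 1.16 and 4.46 in Sham lungs. The group means were 1.83 ± 1.80, 1.79 ± 0.523 and 2.75 ± 1.65 (SD, n = 3 each). I-post C 1 was the lowest library, with 4 deposited counts against 51 to 202 in the others, and the highest library had 54.7 times its FPKM. The log2FC was -0.57 (standard error 0.94, adjusted p = 0.847 from edgeR) in IR against Sham, -0.11 (0.94, adjusted p = 1 from edgeR) in I-post C against IR and -0.68 (0.94, adjusted p = 0.890 from edgeR) in I-post C against Sham. The I-post C against IR value turned to 0.45 without I-post C 1 and lay at 0.01 without IR 1 and 0.00 without IR 3, and the IR against Sham value was 0.06 without Sham 3.

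Tnni3 lies on chromosome 1, between 72882806 and 72886488, and overlaps a second gene. Dnaaf3, which encodes an assembly factor for the dynein arms of motile cilia, lies on the same strand from 72874404 to 72883002, so that the deposited gene models share 197 bases. Tnnt1, the slow skeletal troponin T gene, follows on the same strand 2781 bases further. Dnaaf3 had an FPKM of 0.417, 4.41 and 3.85 in I-post C, 3.82, 2.101 and 0.608 in IR, and 4.18, 1.23 and 3.34 in Sham lungs. Its lowest library was I-post C 1, as for Tnni3. How reads in the shared bases were assigned the sources used here do not say, so the level of Tnni3 is uncertain, and the part of Dnaaf3 in it was not tested.

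Among 15396 tested genes outside the 10, those most like Tnni3 over the 9 libraries were led by Dynlrb2, a dynein light chain of cilia, and included Scgb3a2, a secretoglobin of airway epithelium (Pearson's r of log2(FPKM + 0.5) of 0.896 and 0.874; 0.857 for the 10th gene). Dynlrb2 had an FPKM of 1.57, 23.4 and 26.0 in I-post C, 25.7, 9.77 and 6.29 in IR, and 18.9, 12.1 and 51.5 in Sham lungs. Scgb3a2 had 13.3, 175 and 238 in I-post C, 186, 86.6 and 67.5 in IR, and 137, 112 and 230 in Sham lungs. Scgb1a1, the secretoglobin of club cells, was also lowest in I-post C 1, at 2370 against 3675 to 14602 in the other 8. These genes were named after their values were seen and are the best of many, so the likeness is a description. Sham 3 was the highest library for Tnni3, Dynlrb2 and Scgb1a1, while I-post C 2 was the highest for Dnaaf3 and I-post C 3 for Scgb3a2.

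Actc1, the cardiac alpha-actin of the thin filament, was the most abundant of the 10 genes, and its levels overlapped widely between groups. It lies on chromosome 3 from 105507403 to 105512939. Its FPKM was 6.34, 17.7 and 7.81 in I-post C, 19.4, 5.08 and 22.5 in IR, and 8.36, 13.5 and 16.2 in Sham lungs, and 75.1% of all genes had a lower mean. The group means were 10.6 ± 6.16, 15.7 ± 9.31 and 12.7 ± 3.99 (SD, n = 3 each). IR lungs held both the highest and the lowest library. The log2FC was 0.36 (standard error 0.59, adjusted p = 0.846 from edgeR) in IR against Sham, and -0.14 without IR 3. It was -0.74 (0.59, adjusted p = 1 from edgeR) in I-post C against IR, and -0.25 without IR 3, and -0.37 (0.59, adjusted p = 0.904 from edgeR) in I-post C against Sham.

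Actc1 was set beside the closely related actins of smooth and skeletal muscle. For Actg2, the enteric smooth muscle actin, the FPKM was 39.4, 49.1 and 35.3 in I-post C, 67.1, 24.7 and 165 in IR, and 38.9, 63.8 and 66.1 in Sham lungs. IR 3 and IR 1 were the highest libraries and IR 2 the lowest for both Actc1 and Actg2. Acta2, the vascular smooth muscle actin, was likewise highest in IR 3 (341) and lowest in IR 2 (89.8), and so was Des, which encodes desmin (187 and 23.6). Of the 11 smooth muscle genes, 9 were highest in IR 3 and 6 of these were lowest in IR 2, but the shares of all genes were not counted. Tagln, the most abundant of them, was highest in IR 3 but lowest in Sham 1 (623 and 222), and Smtn, which encodes smoothelin, was highest in I-post C 2 and lowest in Sham 2 (16.9 and 5.66). The genes most like Actc1 were led by LOC103690016 and Nudt1 (Pearson's r = 0.925 and 0.902 over 9 libraries). Actg2 was the 8th (0.860, and 0.902 over the 8 without IR 3, a description). No other gene of the smooth muscle list was among the first 10, and neither Acta2 nor Des was. Acta1, the skeletal alpha-actin, reached 1558 in IR 3, against 1.52 to 34.8 elsewhere, while Actc1 in IR 3 was 1.16 times its value in IR 1 and came to 1.45% of Acta1 there. Reads of these actins can map to more than 1 of them, and the part of the relatives in the Actc1 value was not tested.

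**Figure D2:**
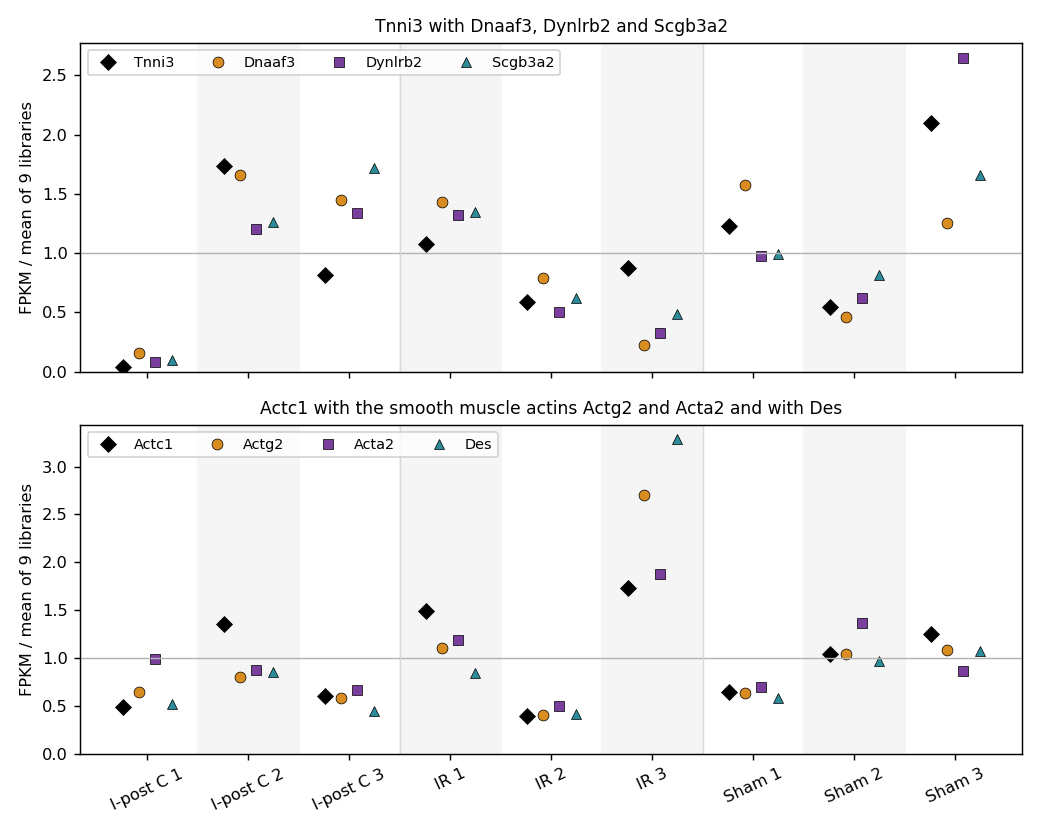
FPKM of each gene in each library divided by the gene's own mean over the 9 libraries, for Tnni3 with 3 genes of cilia and airway (above) and for Actc1 with Actg2, Acta2 and Des (below). The genes of the upper panel were all lowest in I-post C 1, and those of the lower panel, drawn because they share this pattern with Actc1, were highest in IR 3 and lowest in IR 2, as were 6 of the 11 smooth muscle genes.

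Myh6, Myl4 and Sln were raised in a single library. Myh6, the alpha-myosin heavy chain of atrial and adult rodent heart, lies on chromosome 15 from 33605654 to 33629699. Its FPKM was 0.109, 0.0468 and 0.0883 in I-post C, 0.0591, 0.0697 and 10.1 in IR, and 0.00512, 0.0710 and 0.0876 in Sham lungs. IR 3 had 92.9 times the highest other library. The log2FC was 6.07 (standard error 2.00, adjusted p = 0.287 from edgeR) in IR against Sham and -5.64 (1.95, adjusted p = 1 from edgeR) in I-post C against IR, and without IR 3 these values were 0.12 and 0.30. The I-post C against Sham value was 0.43 (1.74, adjusted p = 0.969 from edgeR), and -0.12 without Sham 1.

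Sln encodes sarcolipin, a small inhibitor of the calcium pump of the sarcoplasmic reticulum in atrial and some skeletal muscle, and lies on chromosome 8 from 58431407 to 58435654. Its FPKM was 0.721, 0 and 0.0925 in I-post C, 0.187, 0 and 29.7 in IR, and 0, 0.125 and 0 in Sham lungs. IR 3 had 41.2 times the highest other library, and 4 libraries were at 0, so the fold changes rest on few counts outside IR 3. The log2FC was 7.38 (standard error 2.62, adjusted p = 0.310 from edgeR) in IR against Sham and -5.35 (2.26, adjusted p = 1 from edgeR) in I-post C against IR, and without IR 3 it was 0.54 and 1.48. The I-post C against Sham value was 2.03 (2.63, adjusted p = 0.882 from edgeR), and -0.05 without I-post C 1.

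Myl4, the essential myosin light chain of atria and of embryonic skeletal muscle, lies on chromosome 10 from 92628356 to 92638100. Its FPKM was 1.09, 0.703 and 0.954 in I-post C, 0.251, 0.832 and 10.2 in IR, and 0.519, 0.437 and 0.290 in Sham lungs. IR 3 had 9.37 times the highest other library. The log2FC was 3.36 (standard error 1.17, adjusted p = 0.304 from edgeR) in IR against Sham and -2.29 (1.12, adjusted p = 1 from edgeR) in I-post C against IR, and without IR 3 it was 0.41 and 0.64. Every I-post C library lay above every Sham library, but the log2FC of 1.06 (1.11, adjusted p = 0.852 from edgeR) was not called. The group means were 0.915 ± 0.195 in I-post C and 0.415 ± 0.116 in Sham lungs (SD, n = 3 each). The value stayed between 0.92 and 1.23 with any 1 library left out. Of all tested genes, 5.56% were higher in I-post C than in Sham lungs without overlap.

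Filament genes of ventricular and slow skeletal muscle were higher still in IR 3. Myh7, the beta-myosin heavy chain, lies 4722 bases from Myh6 on the same strand, and its FPKM reached 97.8 in IR 3, against 0.0149 to 0.330 elsewhere. The Myh6 value of IR 3 came to 10.3% of it, and since the coding sequences of both genes are alike, the part of Myh7 reads in Myh6 was not tested. Myl2, the ventricular and slow skeletal regulatory light chain, had 188 in IR 3 and was at 0 in 7 of the other libraries, with 0.578 in I-post C 1. Myl3, the matching essential light chain, had 241 in IR 3 and 0 to 1.16 elsewhere. Tnni1, the slow skeletal troponin I, had 130.6 in IR 3 and 0 to 1.19 elsewhere, whereas Tnni3 was not raised there. The 5 listed genes of ventricular and slow muscle filaments (Myh7, Myl2, Myl3, Tnnc1 and Tpm1) were all highest in IR 3. They summed to 941 there against 66.4 to 106 elsewhere. Tpm1 alone had 63.5 to 103 elsewhere and 236 in IR 3, so the sum outside IR 3 is mostly Tpm1. The heart hormone gene Nppb had 0.335 in IR 3 and was at 0 in the other 8 libraries.

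**Figure D3:**
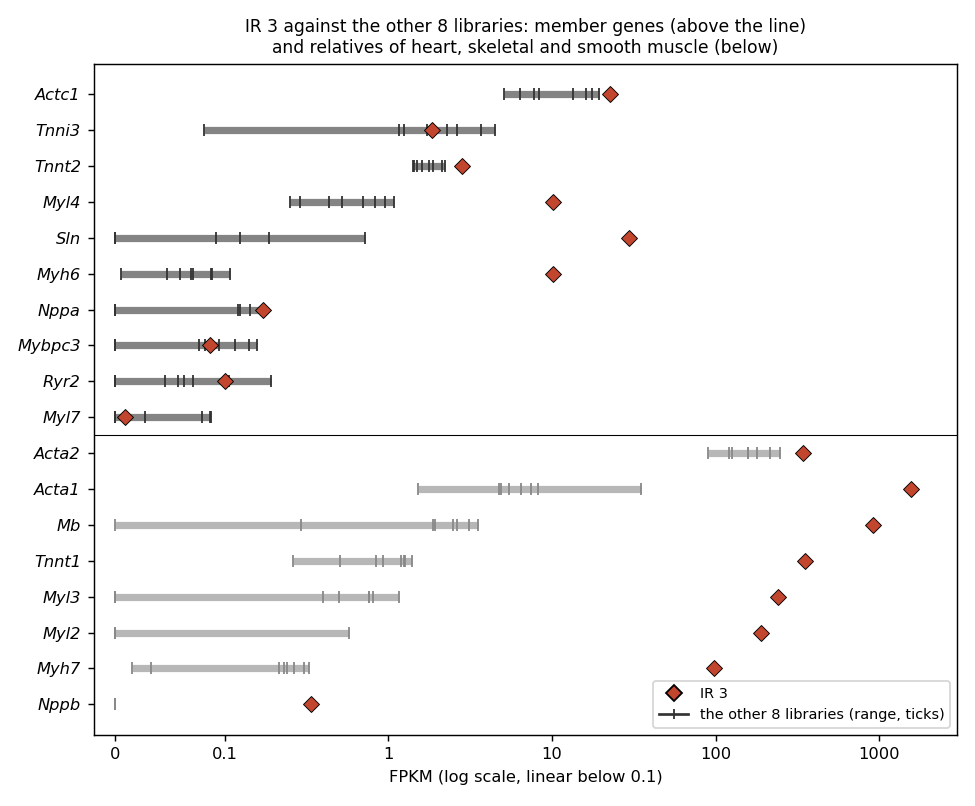
FPKM in IR 3 (diamond) and in the other 8 libraries (ticks, with their range as a bar) for the 10 cardiac muscle genes above the line and 8 relatives below it, on a log axis that is linear below 0.1. Myl4, Sln and Myh6 lay far outside the range of the other libraries, as did Acta1, Mb, Tnnt1, Myl3, Myl2 and Myh7, while Tnni3, Nppa, Mybpc3, Ryr2 and Myl7 lay within it.

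Across muscle genes, IR 3 carried transcripts of skeletal muscle and of both striated tissues. All 22 skeletal muscle genes in the table were highest in IR 3, and 19 of them were at least 10 times the highest other library, Tnnt1 with an FPKM of 351 against 0.261 to 1.40. Of 22 genes shared by heart and skeletal muscle, 19 were highest in IR 3 and 14 were at least 10 times the highest other library, among them Mb, which encodes myoglobin (916 against 0 to 3.52). Of 23 genes of calcium handling, channels and junctions of heart muscle, 7 were highest in IR 3 and 4 were at least 10 times higher, Casq2, the cardiac and slow muscle calsequestrin, with 15.9 against 0.0429 to 0.560. The 4 include Nppb, which was low in IR 3 (0.335) and at 0 in the other 8 libraries. Pln, the phospholamban gene of heart and smooth muscle, was 1.54 in IR 3 and 1.15 to 2.21 elsewhere. Of the 10 cardiac muscle genes, 5 were highest in IR 3, and 2 were at least 10 times the highest other library. The share of all genes that were highest in IR 3 was not counted. These numbers, and the like numbers for other lists, are therefore a description and not a result about the genes.

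Transcription factors of heart muscle were also listed. Of 14 on the list, 10 were in the table and 6 were tested. Of the 10, 4 stayed below an FPKM of 1 in every library, among them Hand2, at 0 in 8 libraries and 0.107 in Sham 3. The highest were Hopx, which is also among the lung cell genes (536 to 1229), Mef2a (4.29 to 23.0) and Gata6 (6.75 to 15.9). Tbx5, a factor of heart and of lung mesenchyme, had 7.60, 8.51 and 4.96 in I-post C, 6.71, 4.34 and 4.94 in IR, and 6.23, 4.53 and 4.20 in Sham lungs, and its groups overlapped. Markers of other tissue that a piece of lung can hold were compared as well. The 11 smooth muscle genes summed to 1524 in IR 3 and 505 to 1061 elsewhere, the 4 mesothelial genes to 248 in IR 3 and 46.4 to 339 elsewhere, the 5 fat genes to 51.8 in IR 3 and 12.996 to 30.7 elsewhere, and the 5 cartilage genes in the table to at most 1.41 in any library. Surfactant gene Sftpc, of alveolar type 2 cells, stood at 19507 in IR 3 and 15691 to 37521 elsewhere and was abundant in every library. The 5 genes of red blood cells summed to 21333 in IR 3 and 4667 to 20265 elsewhere. The part of these tissues in the cardiac muscle genes was not tested.

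The 10 genes, of 15396, whose pattern was most like the mean of the 6 tested cardiac muscle genes were Casq1, LOC100909784, Tmem38a, Xirp1, Srl, Lmod2, Myf6, Actn2, Myom2 and Mylpf, with Pearson's r of log2(FPKM + 0.5) between 0.986 and 0.991 over the 9 libraries. Sln, Myh6 and Myl4 raise this mean in IR 3, so a search by it favours genes that are high there, and the likeness is a description. All 10 genes were highest in IR 3, and over the 8 libraries without it their r lay between 0.533 and 0.760. Casq1, the fast skeletal calsequestrin, reached 58.2 FPKM in IR 3 and at most 1.94 elsewhere, and Myf6, a transcription factor of skeletal muscle, had 6.44 and at most 0.131.

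In the comparison of IR with Sham lungs, 0 of the 6 tested cardiac muscle genes were called by edgeR, against 0.299% of all tested genes (46 of 15402, a number that lay between 0 and 55 with any 1 library left out). That number was 5 without IR 3, 0 without IR 2 or Sham 2, 1 without I-post C 2, Sham 1 or Sham 3, 20 without I-post C 1 and 27 without IR 1. At an unadjusted p under 0.05 the number was 3 of 6 (Sln, Myh6 and Myl4), against 12.2% of all tested genes, and without IR 3 it was 0 of 6. Sln and Myh6 were tested only because IR 3 raised their mean, so the count is not set against that share as a result. The log2FC was above 0 for 5 of the 6, and the median was 1.86 against -0.02 over all genes tested. Without IR 3 the median was -0.01. The directions and the median include Sln and Myh6 too, and are likewise a description. By DESeq2 and by limma 0 of the 6 were called in any of the 3 comparisons, but DESeq2 gave no adjusted p for Sln and Myh6 in IR against Sham and in I-post C against IR, nor, when fitted on all libraries, in I-post C against Sham.

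Between I-post C and IR lungs, 0 of the 6 genes were called by edgeR, against 0% of all tested genes. At an unadjusted p under 0.05 there were 2 (Myh6 and Sln, the same genes that IR 3 brought into the test), against 3.01% of all tested genes, and without IR 3 there were 0. The log2FC of all 6 was below 0, and their median was -1.52 against -0.01 over all genes tested, and the median was 0.21 without IR 3. Since Myh6 and Sln passed the filter only through IR 3, lower values in I-post C were partly fixed by it. The count, directions and median are thus not set against all genes as a result. Between I-post C and Sham lungs, 0 of the 6 genes were called by edgeR, against 0% of all tested genes, and 0 had an unadjusted p under 0.05, against 6.91% of all tested genes. Here the log2FC of 3 genes was above 0 and that of 3 below, and the median was 0.11 against -0.03 over all genes tested. These comparisons share libraries with each other.

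**Figure D4:**
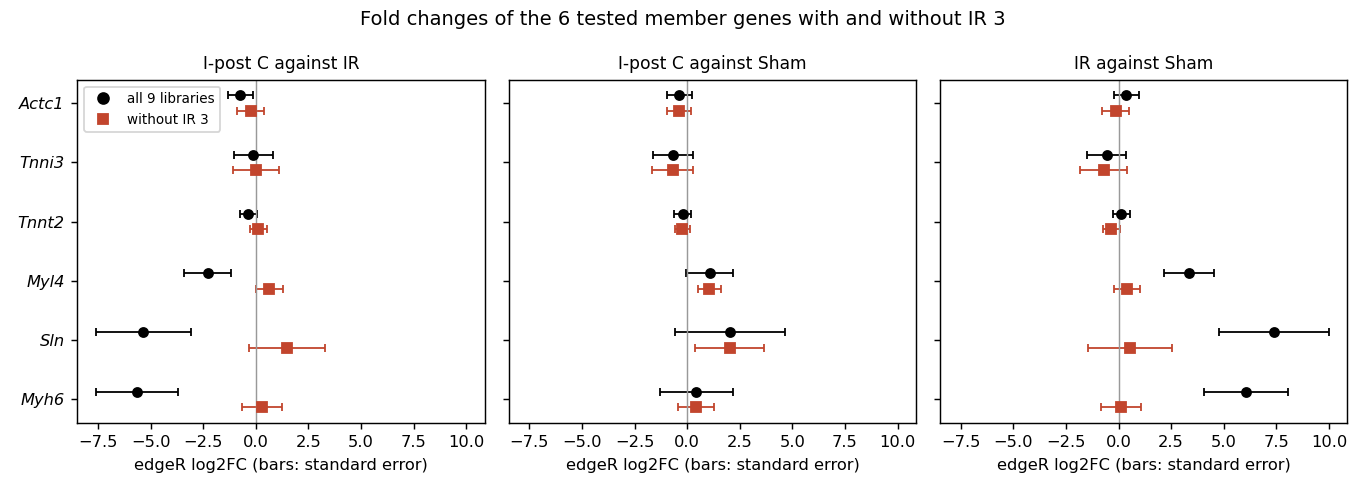
edgeR log2FC of the 6 tested cardiac muscle genes (bars: standard error) with all 9 libraries (black circles) and without IR 3 (red squares), in the 3 comparisons. In I-post C against IR and in IR against Sham, the values of Myl4, Sln and Myh6 moved toward 0 or past it without IR 3 (0.30 against -5.64 with all libraries for Myh6 in I-post C against IR).

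The other lists were compared in the same way. Of 21 tested skeletal muscle genes, 0 were called by edgeR in any of the 3 comparisons, with a median log2FC of 4.82 in IR against Sham, -5.21 in I-post C against IR and -0.22 in I-post C against Sham. Of 20 tested genes shared by heart and skeletal muscle, 0 were called, with medians of 4.84, -4.46 and 0.27 in the same order. Of 18 tested genes of calcium handling, channels and junctions, 0 were called, with medians of 0.35, -0.18 and 0.20. Of 6 tested heart transcription factors, 0 were called, with medians of 0.01, -0.06 and 0.11, and of 11 smooth muscle genes, 0 were called, with medians of 0.34, -0.68 and -0.21. At an unadjusted p under 0.05 in IR against Sham, the numbers were 20 of 21, 17 of 20, 6 of 18, 1 of 6 and 1 of 11, against 12.2% of all tested genes. Some of these genes passed the filter only through IR 3, among them Ryr1, Actn2 and Casq2 (mean FPKM of 0.124, 0.220 and 0.202 without it). These numbers are therefore not set against that share as a result. Lists share genes, and the 1 smooth muscle gene, Ldb3, is also among the 17. Without IR 3 these numbers were 2, 1, 2, 0 and 0, against 8.19% of all tested genes. Of the 5 ventricular and slow filament genes, 0 were called, with medians of 8.47, -6.97 and 1.36. Without IR 3, the medians in IR against Sham were -0.43 for skeletal muscle genes, 0.40 for shared, 0.22 for calcium handling, 0.59 for ventricular and slow filament and -0.31 for smooth muscle genes. For I-post C and IR the medians of these 5 lists then lay between -0.10 and -0.02. None were called of the tested genes of lung cells (6), mesothelium (4), fat (2) and red blood cells (5).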

How the data were processed

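Reads were trimmed with Cutadapt (1.9 per the submitters' processing notes) and aligned to rn6 by HISAT2 (2.2.1). Transcripts were built and quantified by StringTie, for which the notes name 2.1.6 and the methods another version, with ballgown. Deposited FPKM values carry the authors' own scaling for length and depth. Deposited counts are whole numbers, and the sources used here do not say how the authors made them. In every library their total exceeds the mapped reads that the study gives, and so also the read pairs. They are thus not plain counts of fragments, and no counting intervals are given.

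Counts were tested with edgeR 4.0.16 (quasi-likelihood, TMM scaling, group as the only term, all 9 libraries, both directions) in R 4.3.3, for the 15402 genes whose mean FPKM reached 0.5, and p-values were adjusted over them by Benjamini-Hochberg. The call thresholds (0.05, and 1 on the log2 scale) are those of the study, which used DESeq2. The common biological coefficient of variation was 0.406. DESeq2 1.42.0 and limma 3.58.1 on log2(FPKM + 0.5) were alternatives. The edgeR fit was tested on simulated counts, where it called 4% to 5% of genes changed 2-fold and 55% to 59% of genes changed 4-fold. A gene that was not called is thus not shown to be unchanged. Tables were handled in Python 3.11.15.

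Groups and replicate numbers came from the sample titles. The members, lists and tests were chosen with earlier results of these data known. By rule, genes could be named that were members, up to 4 per list by mean FPKM where none was called, the 10 genes most like the mean of the tested members by Pearson's r, or the relatives Acta1, Acta2, Myh7, Myl2, Myl3, Tnni1, Tnnt1, Nppb and Pln; not all of these are printed. Dnaaf3, Dynlrb2, Scgb3a2, Casq2, Hand2, Smtn, Ldb3 and Ryr1 were chosen after values were seen. So were the likeness to Tnni3 and to Actc1, and the list and likeness values without IR 3. Genes on the lists but not found in the table were not analysed here. Promoter windows were taken from RefSeq (GRCr8), a build other than that of the counts. A result for 1 listed gene is not reported here.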

Additional observations from a re-analysis of the deposited data

How the results depend on the processing

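Under 15 alternatives, 0 of the 6 tested genes were called in any comparison. The smallest adjusted p of any member was 0.0559, for Myl4 in IR against Sham by DESeq2 on all libraries, and DESeq2 gave no adjusted p for 10 of its 36 values, all of Myh6 or Sln. Of 270 alternative log2FC values, 14 turned in direction, 13 of them with 1 library left out and 7 of those without IR 3. With 1 library left out, the log2FC in IR against Sham ran from -0.14 to 0.76 for Actc1, -0.35 to 0.32 for Tnnt2 and -0.94 to 0.059 for Tnni3. In I-post C against IR it ran from -6.22 to 0.30 for Myh6, -2.85 to 0.64 for Myl4, -7.44 to 1.48 for Sln, -0.54 to 0.12 for Tnnt2 and -1.06 to 0.45 for Tnni3. In I-post C against Sham it ran from -0.054 to 5.22 for Sln and -0.12 to 0.96 for Myh6. The median over the 6 genes ran from -0.010 to 2.29 in IR against Sham, -1.95 to 0.21 in I-post C against IR and -0.16 to 0.44 in I-post C against Sham. By limma on log2(FPKM + 0.5), where the added constant holds down changes of low genes, IR against Sham was 1.44 for Myh6, 2.02 for Sln, 1.28 for Myl4 and -0.0039 for Tnnt2 with a median of 0.69 over the 6 genes, and across all tested genes the I-post C against IR median was 0.11, against -0.01 by edgeR.

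For IR against Sham, edgeR called 46 of all tested genes, and for the other comparisons 0. The next numbers are for IR against Sham, then I-post C against IR, then I-post C against Sham. DESeq2 called 293, 37 and 108 genes on the libraries of the 2 groups, and 336, 14 and 127 on all libraries. By limma 38, 0 and 1 were called. With 1 library left out the edgeR number ran from 0 to 55, 0 to 1 and 0 to 8. With the replicate number as a block it was 26 in IR against Sham and 0 in the others, and Myh6 was 3.86 in IR against Sham and -2.68 in I-post C against IR. The 9 correlations of same-numbered libraries ran from -0.22 to 0.43. Libraries of different numbers were not set beside them, so whether the numbers pair the libraries cannot be told from these values. The cause of these differences was not tested. The filter over the 8 libraries without IR 3, chosen after seeing the data, passed 4 cardiac muscle genes in place of 6.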
